A study of Caenorhabditis elegans with 2 samples.

Results

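Introns, away from every annotated start of a protein-coding gene, held 310 of the 2351 autosomal LIN-40 peaks mapped in young adult Caenorhabditis elegans, or 13.2% (exact 95% interval 11.8 to 14.6). A peak is a region of the authors' ce11 list that passed their irreproducible discovery rate (IDR) threshold. That list held 3066 peaks with X included, and each peak was placed by its summit. A peak was taken where the summit lay outside the window from 1000 bp upstream to 200 bp downstream of every protein-coding transcript start, over 300 bp from every tRNA gene, and inside a protein-coding gene but in none of its exons. Allowing the exons of another, overlapping gene at the summit would have added 6 peaks. The other autosomal peaks fell in promoter windows (1359), between genes (532), in exons (88) or beside tRNA genes (62), and 69 further intron peaks on X were left out by the rule. The chromatin came from whole hermaphrodites of the OP485 strain, 57.25 hours after starved first-stage larvae were synchronised, and was sheared by sonication. LIN-40 carried GFP and FLAG at its C terminus, and an anti-GFP antibody was used for the immunoprecipitation. The data are 2 libraries of 1 group, numbered biological replicates 3 and 4, so no condition could be compared. All tissues of the animal were mixed, the strain is the single tagged one, and control libraries were not analysed here.

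The protein belongs to the MTA family of NuRD subunits. NuRD joins a nucleosome remodelling ATPase to a histone deacetylase, and it is known mainly as a repressor of transcription in development. Complexes of this kind are recruited by sequence-specific factors and are found at promoters and at enhancers. In nematodes long introns, above all those near the beginning of a gene, can hold enhancers and later promoters of the same gene, and many small RNA genes lie inside introns of protein-coding genes.

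The sequences at some of the strongest intron summits show letters that recurred in many of these peaks. GAGAGA was at 8 of the 10 strongest summits, and the other 2, which are not shown, held neither of the motifs marked here. Each is 201 bases of ce11 read from the RefSeq copy of the genome, 100 bases either side of the summit, on the plus strand of the chromosome. Capitals mark GAGAGA and CTGCGTCT, or their complements TCTCTC and AGACGCAG, and adjoining copies run together. The first 5 come from the 10 strongest intron peaks, daf-14 shows a long GA repeat, and egl-27 is the gene of another MTA-type NuRD subunit. The windows are chrIII:12612563-12612763 in Y111B2A.12, chrIII:1921318-1921518 in pqn-41, chrIV:2602065-2602265 in epg-9, chrV:19529281-19529481 in Y43F8B.2, chrIII:349849-350049 in gei-4, chrIV:10252403-10252603 in daf-14 and chrII:6842776-6842976 in egl-27.
Y111B2A.12: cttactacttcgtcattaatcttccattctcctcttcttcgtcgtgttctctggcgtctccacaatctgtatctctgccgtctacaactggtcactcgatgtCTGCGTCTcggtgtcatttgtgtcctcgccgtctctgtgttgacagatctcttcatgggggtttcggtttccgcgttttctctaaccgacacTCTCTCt
pqn-41: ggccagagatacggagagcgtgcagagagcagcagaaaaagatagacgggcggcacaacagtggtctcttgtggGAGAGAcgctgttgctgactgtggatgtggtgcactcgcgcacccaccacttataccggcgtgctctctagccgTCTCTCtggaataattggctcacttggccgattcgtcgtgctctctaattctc
epg-9: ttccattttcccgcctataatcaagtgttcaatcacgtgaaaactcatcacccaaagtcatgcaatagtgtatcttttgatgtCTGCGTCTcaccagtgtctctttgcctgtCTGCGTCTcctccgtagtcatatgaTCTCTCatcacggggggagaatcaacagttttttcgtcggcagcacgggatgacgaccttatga
Y43F8B.2: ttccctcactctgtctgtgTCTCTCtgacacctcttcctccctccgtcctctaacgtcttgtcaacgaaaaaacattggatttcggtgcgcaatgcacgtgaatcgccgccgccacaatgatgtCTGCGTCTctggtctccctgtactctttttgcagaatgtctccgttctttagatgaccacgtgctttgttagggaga
gei-4: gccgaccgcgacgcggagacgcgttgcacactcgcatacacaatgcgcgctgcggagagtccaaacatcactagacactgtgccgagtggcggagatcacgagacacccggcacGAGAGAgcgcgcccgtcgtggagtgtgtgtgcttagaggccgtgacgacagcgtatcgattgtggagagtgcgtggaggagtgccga
daf-14: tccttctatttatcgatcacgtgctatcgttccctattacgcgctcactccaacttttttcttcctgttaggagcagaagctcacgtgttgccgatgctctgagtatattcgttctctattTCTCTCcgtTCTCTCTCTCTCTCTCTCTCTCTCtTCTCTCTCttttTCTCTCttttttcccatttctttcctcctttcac
egl-27: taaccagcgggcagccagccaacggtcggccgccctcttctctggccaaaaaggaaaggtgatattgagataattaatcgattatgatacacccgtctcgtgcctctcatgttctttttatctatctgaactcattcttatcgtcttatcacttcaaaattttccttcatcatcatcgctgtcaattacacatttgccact
The Y111B2A.12, epg-9 and Y43F8B.2 windows held both GAGAGA and CTGCGTCT. The pqn-41 and gei-4 windows held GAGAGA alone, and the egl-27 window held neither motif. Over all intron peaks CTGCGTCT occurred 56 times at 51 summits, and it was preceded by T in 44 (78.6%) and followed by C in 47 (83.9%) of the 56.

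The strongest intron peaks had similar values in both replicates. Signal is the authors' caller's value for a region, on a scale not given in the sources used here, and replicate values are those of the strongest region of that replicate's own list that overlapped the peak. The top peak, chrIII:12612327-12613054 in intron 4 of 7 of Y111B2A.12, had a signal of 882, with 410.0 in replicate 3 and 476 in replicate 4. The second, in the first intron of T28F4.1, had 839 (408 and 429.9), and its summit lay 8 bp from the RNA gene T28F4.7. Intron 14 of pqn-41, a gene for a protein rich in glutamine and asparagine, held the next 2 peaks, with 805 (386 and 419) and 792 (357 and 449.9). The weakest intron peak had 99.97 (51.3 and 51.2). The strongest were chosen by pooled signal from a list that had passed IDR. Their likeness between replicates and their distance from the weakest therefore do not measure agreement.

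The remainder of the 12 strongest lay in genes of varied kinds. The peak in dhc-4, a dynein heavy chain gene, had 789.8 (378.5 and 412), and its summit lay 21 bp before the snRNA gene R07E5.16. The epg-9 peak, in a gene needed for autophagy, had 723 (351 and 372). F58G1.7 had 643 (335.5 and 337), with the summit inside the snRNA gene sup-6. Signal was 638.5 (289 and 351) in Y43F8B.2 and 631 (324 and 306) in gei-4. ppfr-1, a gene for a regulatory subunit of a protein phosphatase, held 2 of the 12, with 685 (362 and 335) and 618 (290.3 and 361). The stronger of these summits lay in the RNA gene F16A11.7 and the other 223 bp from the RNA gene F16A11.13. zfp-1, a gene for a chromatin protein of the AF10 family, had 595.5 (279 and 331).

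Over all 310 intron peaks the signal ran from 99.97 to 882 with a median of 152, against medians of 173 for promoter peaks and 150.8 for intergenic peaks. Replicate 3 had a median of 76.1 (30.9 to 410.0) and replicate 4 a median of 90.6 (43.4 to 476). Replicate 4 had the higher value in 227 of 310, and the log2 ratio of replicate 4 to replicate 3 had a median of 0.20 and an SD of 0.39 over peaks. The largest inequality was in the second intron of atf-7, a gene for a bZIP transcription factor of the innate immune response, with 30.9 in replicate 3 and 119 in replicate 4. That is 1.94 on the log2 scale, and the peak's own signal was 139. Higher values in replicate 4 were not particular to introns. Of peaks with a value in both replicates, they were found in 1049 of 1346 promoter and 388 of 528 intergenic peaks. The counts were 56 of 88 for exon peaks and 32 of 62 for peaks beside tRNA genes.

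Most intron peaks were also among the strongest regions of both replicates. Of the 310 intron peaks, 234 (75.5%, exact 95% interval 70.3 to 80.2) overlapped by at least 1 bp a region among the 3066 strongest of each replicate. A further 75 overlapped such a region in 1 replicate, and 1 in neither. The share was 82.3% for promoter peaks and 75.8% for intergenic peaks. Among intron peaks it was 103 of the 103 strongest by signal, 95 of the next 103 and 36 of the 104 weakest. Since the pooled signal rises with both replicate values, the limit on their lists sets this order, and it does not measure agreement. The IDR list stops at a signal of 99.97, and the intron peaks just inside it had 99.97, 100.1 and 100.4. The intron regions of the pooled list just outside had 99.9, 99.8 and 99.3.

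**Figure D1:**
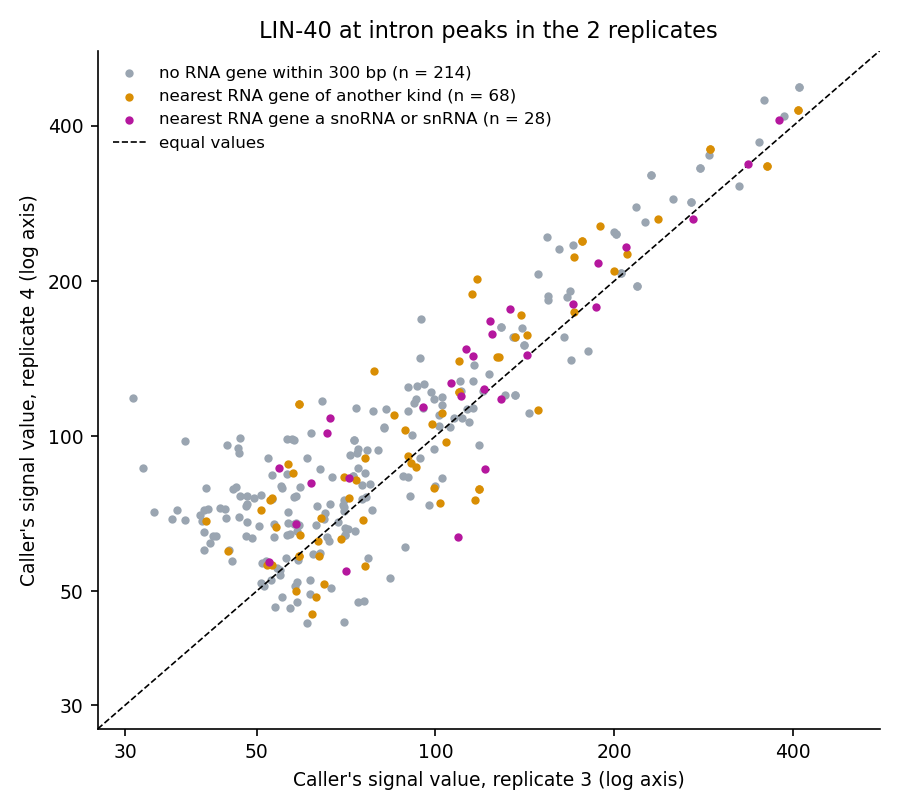
Signal value of each of the 310 intron peaks in replicate 3 (x axis) and replicate 4 (y axis), both on log axes, coloured by the nearest annotated RNA gene within 300 bp of the summit. Points run from 30.9 to 410.0 in replicate 3 and from 43.4 to 476 in replicate 4, most lie above the dashed line of equal values, and the scatter about it is widest at the weak end.

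Peak width ran from 116 to 3290 bp with a median of 464 bp. That median is also the commonest width: 84 intron peaks (27.1%) were exactly 464 bp wide with the summit in the middle, and these were mostly weak, with a median signal of 115 and a highest of 236. In all, 10 intron peaks were wider than 1000 bp. The widest was in intron 5 of W06H8.6, with 439 (189.6 and 256), and the next were in ppfr-1, 1873 bp, and mdt-26, a Mediator subunit gene, 1412 bp with 362 (218 and 196).

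The intron share was similar over the IDR peaks and rose below the threshold. Among autosomal regions of the pooled list ranked by signal, introns held 12.6% of the 587 strongest IDR peaks, 11.2% and 13.6% of the next sets of 587, and 15.3% of the 590 weakest. Below the threshold the share was 18.6% in the next 2351 regions and 34.2% in the last part of the list. Eligible intron sequence, meaning every base that would meet the rule, made up 27.2% of the autosomes. The intron share thus lay below that of the sequence among IDR peaks and above it only far down the list.

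Intron peaks were sparse for the sequence they could occupy. The eligible intron sequence came to 22.5 Mb and held 13.8 peaks per Mb, against 60.5 per Mb in promoter windows, 27.5 between genes and 4.86 in exons. They were denser in the middle of the chromosomes than in the arms, taken as the outer 25% at each end. Centres held 186 peaks, or 19.8 per Mb of eligible intron sequence, and arms 124, or 9.46 per Mb. The centre was denser on each of the 5 autosomes, by differing amounts. On II it had 16.8 against 13.0 per Mb, and on V 17.7 against 4.04. Among whole chromosomes III was densest with 19.1 per Mb (85 peaks) and V sparsest with 9.87 (47 peaks), while median signal was 152 in both arms and centres. Density was not tested here, because neighbouring peaks are not independent.

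Few introns were occupied, and the occupied ones were long. Of 68896 introns with eligible sequence 243 held a summit (0.353%), and of 14830 genes with such introns 229 were hosts (1.54%). Introns up to 250 bp held a summit in 0.0201% of cases, those over 2000 and up to 4000 bp in 3.92%, those over 4000 and up to 8000 bp in 10.7% and longer ones in 20.9%. Length alone would give long introns more summits, so density per base was set beside it. It rose from 2.79 peaks per Mb in the shortest introns to 22.1, 35.6 and 47.3 per Mb in these 3 classes, with a lower value of 4.68 between 500 and 1000 bp than the 8.62 just below. In these classes an intron is the stretch between the merged exons of all transcripts of a gene. Introns of the longest transcript around the summit can be longer. Counted by those, 49.4% of the intron peaks (exact 95% interval 43.7 to 55.1) were in introns over 4000 bp, which held 17.03% of the eligible sequence. On the same count the median intron at a peak was 3950 bp long.

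**Figure D2:**
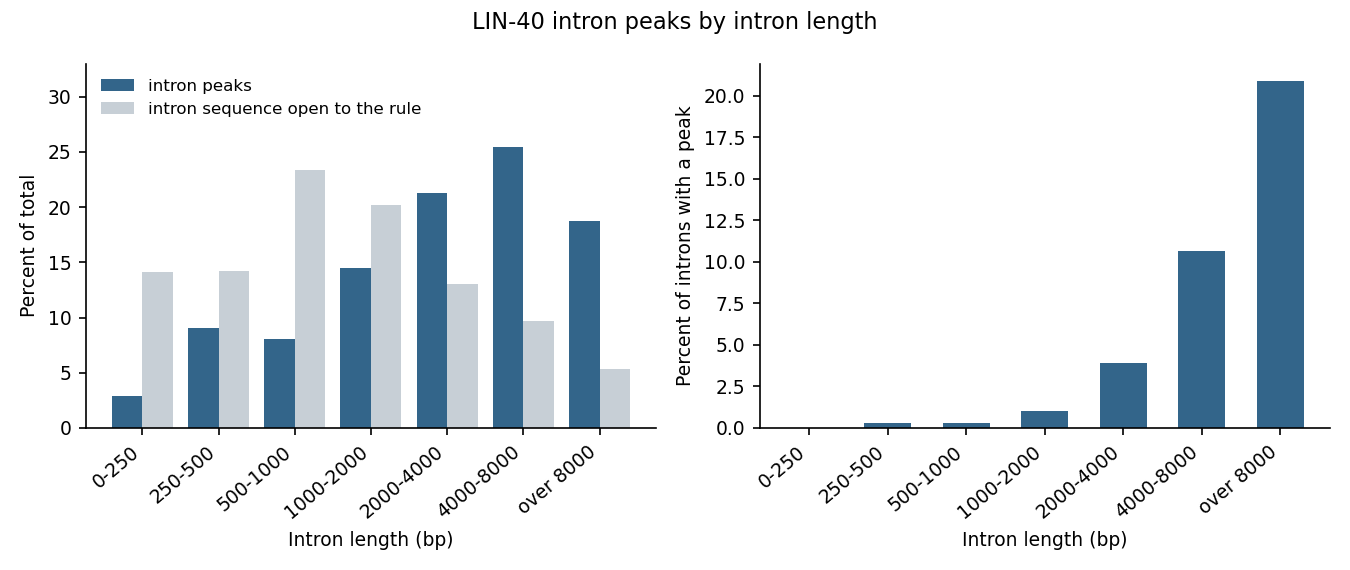
Left, percent of the 310 intron peaks (dark bars) and of the eligible intron sequence (light bars) in each class of intron length in bp; right, percent of introns of each length with at least 1 summit. Introns here run between the merged exons of a gene. Peaks exceed sequence in every class above 2000 bp, and the share of introns with a summit goes from 0.0201% in the shortest class to 20.9% in the longest.

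Peaks lay more often than the sequence in introns that are first in some transcript, and before later starts of the host. The first intron of at least 1 transcript held 155 of the 310 summits (50%, exact 95% interval 44.3 to 55.7), against 28.1% of the eligible sequence, and 104 were in intron 1 of the host's longest transcript there. A transcript start of the same gene lay further downstream for 178 (57.4%, 51.7 to 62.99), against 23.6% of the sequence. For 57 peaks (18.4%) that start was 1001 to 2000 bp away, just beyond the promoter window, against 6.60% of the sequence. The share before a later start was not taken within classes of intron length. Length and order of introns went together, so both were taken at once, with introns between merged exons. In introns over 4000 bp first introns held 48.0 peaks per Mb and later introns 30.2. In introns of 1001 to 4000 bp the values were 23.1 and 10.8, and in shorter introns 5.57 and 5.16, where the order made little difference.

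Distance from a start set the peaks apart much less. Over 2000 bp past every upstream start of the host lay 56.5% of the summits and 50.5% of the sequence, and 201 to 500 bp past one lay 5.48% and 10.4%. The median distance to the nearest protein-coding start was 1715 bp for the summits and 1658 bp for the eligible sequence, and summits ranged from 220 to 20361 bp. The farthest were 2 summits of 1 interval, chrIII:2171910-2172498, in intron 11 of 27 of gcn-1, a gene of the pathway that represses translation under amino acid starvation. The stronger one had a signal of 289 (136 and 156). The other lay 146 bp before the microRNA gene mir-229. Summits were seldom close to exons. Of 310, 23 lay within 100 bp of an exon of the host (7.42%, against 31.6% of the sequence), and 151 (48.7%) were over 1000 bp from all of them, against 15.8%. Long introns offer more such positions, and this share was not taken within classes of length.

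Some genes held several peaks. The 310 summits had 226 main hosts, the host being the gene with the longest transcript around the summit. Of these, 178 held 1 summit, 28 held 2, 10 held 3, 5 held 4, 4 held 5 and ppfr-1 held 6. Summits of 1 region are not separate observations. When overlapping intervals were merged, the 310 summits formed 288 regions, 22 of which held 2 summits, 199 to 221 bp apart. By regions 38 hosts had 2 or more and 8 had 4 (ppfr-1, pkg-2, let-526, daf-5, aakg-1, fkh-7, daf-16 and pqn-41). Summits in 1 interval also share their replicate values.

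**Figure D3:**
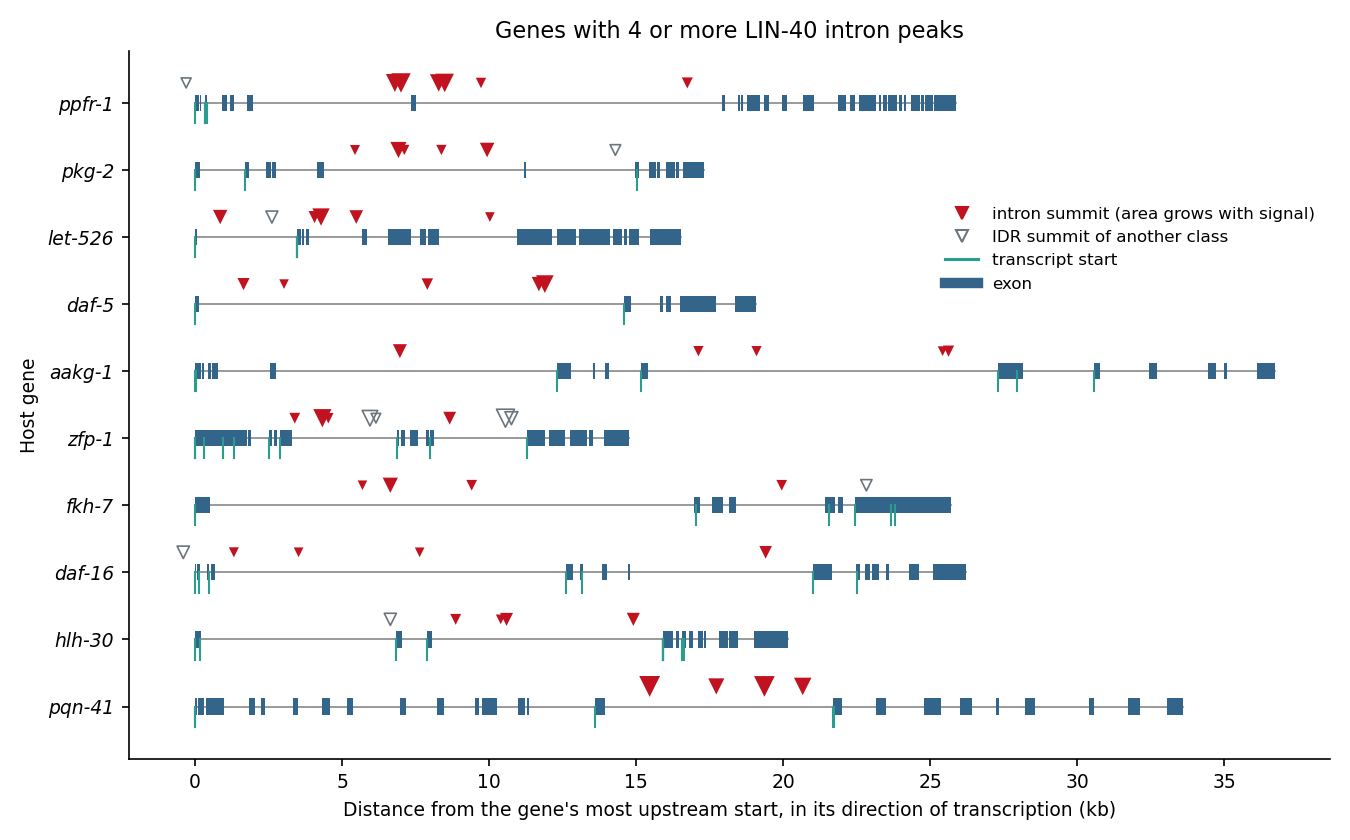
Exons (blue), transcript starts (green) and IDR summits of the 10 genes with 4 or more intron peaks, in kb from each gene's most upstream start in its direction of transcription. Filled triangles are intron summits and open ones IDR summits of another class, with area growing with signal, and the intron summits of pqn-41, pkg-2, daf-5 and hlh-30 fall in a single intron each.

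The 10 genes on these maps differed in where the peaks lay. In pqn-41 all 4 summits were in the 10372 bp intron 14, over 5206 bp, and all were strong, from 448 to 805. In daf-5, a gene for a Sno/Ski-type factor of the dauer TGF-beta pathway, all 5 were in the 14446 bp first intron. Its strongest, chrII:14040069-14040915, had 555 (231 and 321) and lay 2689 bp before the later start of the gene, and its weakest had 100.8 (50.9 and 51.9). let-526, a gene for an ARID subunit of a SWI/SNF-type remodeller, held 5 summits in 3 introns, from 103.9 to 529.9. pkg-2, a gene for a cGMP-dependent protein kinase, held 5 in its intron 4, from 119 to 448. aakg-1, a gene for a gamma subunit of AMP-activated kinase, held 5 weaker ones, from 105 to 311, over 18664 bp. Its summit at chrIII:12549774 stood near a GA repeat that fills the last 61 bases of its 201 bp window and may run on beyond it, and was unequal between replicates, with 59.0 and 115.5. ppfr-1 reached from 134 to 685, and its weakest summit lay 240 bp before the microRNA gene mir-71.

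Of the 3 lists of transcription factor genes, 1 had a share of hosts well above that of all genes. In the list of transcription factor families other than homeobox genes and nuclear hormone receptors, 14 of 111 genes with eligible introns were hosts (12.6%), against 1.54% of all such genes. These genes have more eligible sequence, with a median of 1293 bp against 643 bp, and the density was 71.6 peaks per Mb against 13.6 over all genes. Over all genes the share of hosts rose with eligible sequence, from 0.142% up to 500 bp to 14.55% over 8000 bp. The hosts fkh-7, daf-16 and hlh-30 have 13574 to 18890 bp each. Density also rose with intron length, and no list was compared with genes of like intron length. fkh-7, a forkhead gene, had the strongest, 389 (161 and 231), 6638 bp past the gene's start in a first intron of 16465 bp. mef-2, whose product is a MADS-box factor of muscle and neurons, had 323 (165 and 155.5), and klf-1, a Krüppel-like factor, 294 (135 and 156). hlh-30, the worm TFEB, a regulator of autophagy and lysosome genes, had 264 (149 and 112) and 258 (136 and 120.4) at its strongest. The summit of 264 lay in the RNA gene W02C12.4. daf-16, the FOXO factor of insulin signalling, had 241 (109.7 and 139.8) and 3 more summits of 103 to 119. The summit of 241 lay 185 bp from the RNA gene R13H8.5. The other hosts of the list were skn-1, lag-1, jun-1, zip-3, lin-1, crh-1, atf-7, zip-5 and tra-1, with strongest summits from 110 to 255.

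The other lists of developmental regulators had lower shares of hosts. No gene of the homeobox list was a host (0 of 69), in 0.145 Mb of eligible sequence. Over all such genes 1.54% were hosts, and at that share a list of this size would hold few or none. Of nuclear hormone receptor genes 4 of 244 (1.64%) were hosts, close to the share of all genes. nhr-19 was the strongest, 485 (226 and 260), and nhr-46 (239), nhr-34 (211) and nhr-31 (199) followed. The nhr-31 summit lay 15 bp from the RNA gene C26B2.12. In the list of signalling pathways, 6 of 67 genes were hosts (8.96%) with 12 peaks, or 43.5 per Mb. Over all genes the values were 1.54% and 13.6 per Mb. The median eligible sequence was 1877 bp against 643 bp, and daf-5 held 5 of the 12 peaks. Beside daf-5 the hosts included daf-14, a gene for a Smad of the dauer TGF-beta pathway, with 402 (170 and 235) at chrIV:10252288-10252914. mpk-1, the gene for the ERK kinase of the Ras pathway, had 288 (141 and 150.4) and let-363, the gene for TOR kinase, 140 (66.5 and 73.7). daf-2, the insulin receptor gene, and sel-8, a Notch co-activator gene, held weaker summits of 139 and 138 and were named after their values were seen. The daf-2 summit of 139 lay in the RNA gene linc-143.

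The list of chromatin regulators held 13 peaks, all in 4 of the 106 genes with eligible introns (3.77%, against 1.54% over all genes). Most were in zfp-1 and let-526, with 9 between them, and in ncl-1, with 3. ncl-1 encodes a B-box protein known for limiting the size of the nucleolus, and is not a chromatin protein although the list holds it. The fourth was egl-27, a gene for an MTA-type NuRD subunit like LIN-40 itself. Its peak, chrII:6842578-6843087, had 358 (168 and 191) and lay 472 bp past a start and 2484 bp before a later one. Cytoskeleton genes were hosts in 8 of 75 cases (10.7%, 24.98 per Mb), against 1.54% and 13.6 per Mb over all genes. Their median eligible sequence was 1924 bp against 643 bp, and over all genes the share of hosts rose with it. Of these hosts klp-6, a kinesin-3 gene, had 405 (200 and 209) inside the RNA gene srpr-2.2. unc-70, the beta-spectrin gene, had 214 (102.5 and 111) beside the snoRNA gene K11C4.6. tba-7 had 184 inside the RNA gene T28D6.15, and unc-73 had 156.

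The remaining lists held 4 peaks or fewer each. RNA-binding and translation genes were hosts in 3 of 122 cases (2.46%), with larp-1, an RNA-binding protein gene, at 338 (155 and 187), ain-2 at 156 and asd-2 at 112. Synapse genes gave 2 of 50, unc-41 with 254 (121 and 123) and unc-43, the CaM kinase II gene, with 124 (59.0 and 67.3). The unc-41 summit lay 40 bp from the snoRNA gene C27H6.5. Ion channels and receptors gave 2 of 162, both at small RNA genes. They were twk-5 with 209, 19 bp from the snoRNA gene B0334.12, and glr-2 with 151, inside the snRNA gene sls-2.16. Metabolic enzymes gave 1 of 218, acs-13 with 207 (99.4 and 118). The listed muscle genes (0 of 41) and genes of cell adhesion and matrix (0 of 69) gave none, although the latter have 0.407 Mb of eligible intron sequence. The peroxidasin gene pxn-1, a host named below, is not on the latter list. With the strongest regions of replicate 3 alone 1 gene of the adhesion and matrix list was a host, and with those of replicate 4 alone 2 metabolic enzyme genes were. These counts are small, and the lists were not tested against each other. At the share of all genes, 1.54%, lists of 41 or 69 genes would hold few hosts or none.

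RNA genes inside the introns were a recurrent neighbour. An annotated non-coding RNA gene, tRNA excepted by the rule, lay within 300 bp of 96 summits (31.0%, exact 95% interval 25.9 to 36.4), against 8.36% of the eligible sequence. The share was 18.5% at promoter peaks and 23.7% at intergenic peaks. It rose with signal, from 21.2% of the 104 weakest to 40.8% of the 103 strongest, and peaks with such a gene had a median signal of 189 against 138 without. Small nucleolar RNA (snoRNA) genes, whose products guide modification of ribosomal RNA, were nearby for 26 peaks (8.39%), against 0.260% of the sequence. Genes annotated only as ncRNA were nearby for 60 (19.4%, against 3.54%), snRNA genes for 7, antisense RNA genes for 5 and microRNA genes for 5. piRNA genes, whose small RNAs silence transposons in the germline, were nearby for 9 (2.90%), against 4.37% of the sequence.

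The snoRNA summits stood at the starts of the snoRNA genes. All 26 lay within 100 bp of the annotated 5′ end, 20 of them upstream, with a median of 22 bp upstream. Their median signal was 261, and 19 of the 26 snoRNA genes were on the strand of the host. Seen from the other side, 27 of the 113 snoRNA genes that begin in eligible introns had an intron summit within 300 bp (23.9%, 16.4 to 32.8). The share was 14% of 50 snRNA genes, 8.93% of 56 microRNA genes, 4.06% of 1552 ncRNA genes and 0.331% of 4531 piRNA genes. The strongest snoRNA summit was at ZK994.7 in pxn-1, a peroxidasin gene, with 541 (272 and 264), and Y43F8C.22 in Y43F8C.7 followed with 432 (209.7 and 233).

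MicroRNA and snRNA genes, which encode regulators of messenger RNA and parts of the splicing machinery, had fewer summits beside them. All 5 microRNA genes were on the strand of the host with the summit upstream. The closest was mir-2214 in B0361.11, 26 bp from a summit of 387 (171 and 223). mir-90 in K01F9.2 lay 288 bp from one of 214 (78.7 and 134), and mir-58a in Y67D8A.2 lay 272 bp from one of 173 (102 and 74.3). Of the 7 snRNA summits 6 lay within 100 bp of the RNA's start. Apart from the strongest 2 the snRNA summits had signals from 123 to 173, and 2 of these were at the spliced leader genes sls-2.16 in glr-2 and sls-2.14 in W09D6.5.

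**Figure D4:**
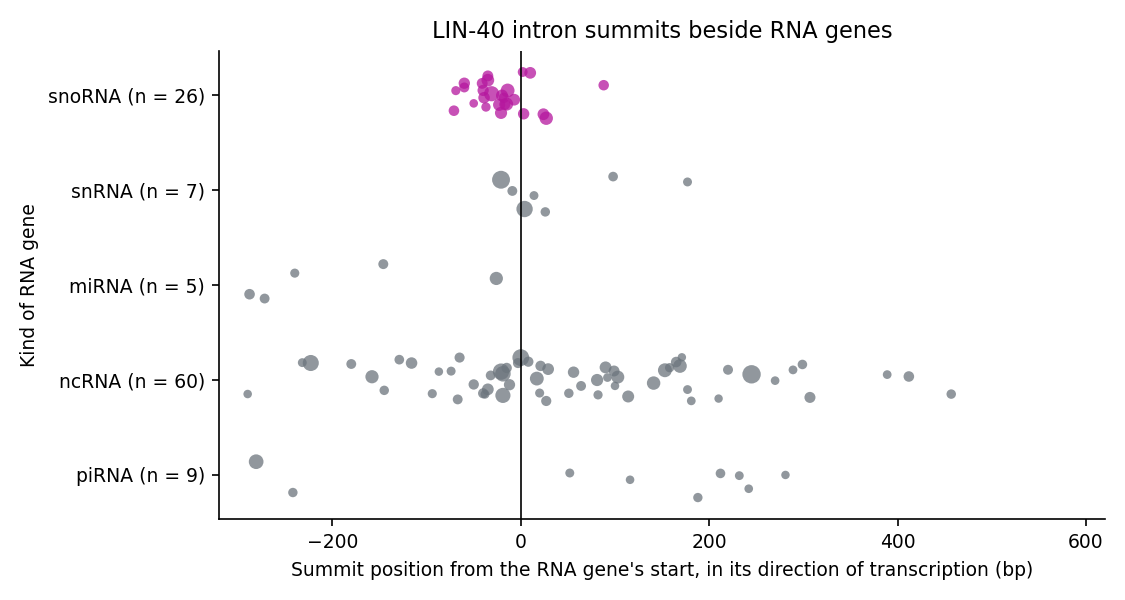
Position of intron summits from the start of the nearest gene of each RNA kind within 300 bp, in bp along that RNA gene (x axis), by kind, with point area growing with signal. The 26 snoRNA summits crowd between 71 bp before and 88 bp after the start, while the 60 ncRNA summits spread over both sides.

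The sequences before these snoRNA genes fell into recurring kinds, shown here because the summits lie in or beside them. Each is 110 bases of ce11, read from the RefSeq genome on the strand of the snoRNA, from 90 bases before its annotated start to its base 20. Capitals mark GGCNNAGTG, GTTCNANNC and GTGTCGG, letters picked after these sequences had been read, on the strand of the snoRNA. GTTCNANNC is part of the B box and GGCNNAGTG of the A box, internal promoter elements of tRNA genes. Summits within 300 bp of an annotated tRNA gene had been left out by the rule. The windows are chrV:19643168-19643277 on the minus strand before Y43F8C.22, chrV:11314168-11314277 on the plus strand before T03F7.8 in cutl-18, chrII:5105212-5105321 on the minus strand before C04G6.12 in mpk-2, chrV:8228950-8229059 on the minus strand before C16D9.11 in rol-3, chrIV:867114-867223 on the minus strand before Y55F3BR.9 in Y55F3BR.2 and chrV:8349018-8349127 on the plus strand before C08D8.3 in C08D8.1.
Y43F8C.22: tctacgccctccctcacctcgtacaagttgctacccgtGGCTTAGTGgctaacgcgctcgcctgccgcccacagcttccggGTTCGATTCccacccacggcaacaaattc
T03F7.8: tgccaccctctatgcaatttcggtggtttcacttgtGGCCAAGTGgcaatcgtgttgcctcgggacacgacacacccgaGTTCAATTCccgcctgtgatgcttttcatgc
C04G6.12: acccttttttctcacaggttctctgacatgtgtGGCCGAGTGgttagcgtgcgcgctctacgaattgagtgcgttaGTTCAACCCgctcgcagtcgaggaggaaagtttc
C16D9.11: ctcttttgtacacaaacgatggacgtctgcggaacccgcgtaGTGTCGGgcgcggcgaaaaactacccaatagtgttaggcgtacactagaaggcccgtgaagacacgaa
Y55F3BR.9: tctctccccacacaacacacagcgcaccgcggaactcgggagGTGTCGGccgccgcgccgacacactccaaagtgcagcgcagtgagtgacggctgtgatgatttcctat
C08D8.3: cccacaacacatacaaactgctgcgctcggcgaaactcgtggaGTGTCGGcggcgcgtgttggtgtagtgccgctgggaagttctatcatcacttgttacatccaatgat
The peak at T03F7.8 had a signal of 315 (139 and 172), that at C04G6.12 262 (113 and 148) and that at C16D9.11 313 (134 and 176). Of the 26 snoRNA genes at a summit, 6 held GGCNNAGTG, 9 held GTTCNANNC and 5 held both. GTGTCGG was in 4 others, none of which held the first 2. At least 1 of these was thus in 14 of 26 (53.8%), against 12 of the 86 other snoRNA genes in eligible introns (13.95%) and 2.22% of windows of this length tiled over the eligible introns on 1 strand. Because the letters were picked from the 26 sequences, the difference is a description of them and has no test.

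The GA repeat was the commonest motif at intron summits. GAGAGA on either strand occurred within 100 bp of 168 summits (54.2%, exact 95% interval 48.5 to 59.8). It occurred in 16.8% of windows 1500 bp toward higher coordinates and in 7.99% of 201 bp windows tiled over all eligible intron sequence. Intergenic peaks had it at 56.0% and promoter peaks at 36.6%, and the difference between classes was not tested. On the coding strand of the host 43 intron summits had it, on the opposite strand 94 and on both 31. This split was not taken over flanks or tiled windows, so whether it differs from other intron sequence is not known. A GA run of 12 bases or more was near 28 summits (9.03%), against 0.354% of tiled windows. Summits with GAGAGA had a median signal of 162 and those without 141.

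Other motifs separated in the same windows. CTGCGTCT, an 8-base sequence whose last letters can also begin TCTCTC so that the motifs may share bases, was at 51 summits (16.5%, 12.5 to 21.1) against 0.968% of flanks and 1.21% of tiled windows, and 44 of these 51 also held the GA repeat. The E-box CACGTG, bound by basic helix-loop-helix factors such as those of the Myc and TFEB families, was at 47 (15.2%, against 4.84% and 2.88%). CNCCGCCC was at 12 (3.87%, against 2.90% and 1.65%). TGATAA, the GATA factor motif, was at 18.7% of summits, 16.5% of flanks and 15.97% of tiled windows, and CCAAT at 32.3%, 32.3% and 35.1%. TAATTA, the core bound by homeodomains, was at 2.58% of summits against 9.03% and 9.75%, and TTCNNGAA, a core of heat shock elements, at 6.45% against 15.8% and 15.1%. AGGTCA, the core bound by nuclear receptors, was at 5.81%, 6.13% and 4.43%. At 109 summits none of the first 4 motifs named here (the GA repeat, the 8-base sequence, the E-box and CNCCGCCC) was found.

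Some motifs changed along the range of signal. GAGAGA was at 62.1% of the 103 strongest summits, 50.5% of the next 103 and 50% of the 104 weakest, and CTGCGTCT at 20.4%, 18.4% and 10.6%. TGATAA went the other way, with 9.71%, 20.4% and 25.96%. So did AGGTCA, with 1.94%, 3.88% and 11.5%, but it was at only 18 summits in all. The mean G and C content of the windows fell along the same order, from 48.55% to 43.7% and 41.35%, and its part in these shares was not tested.

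**Figure D5:**
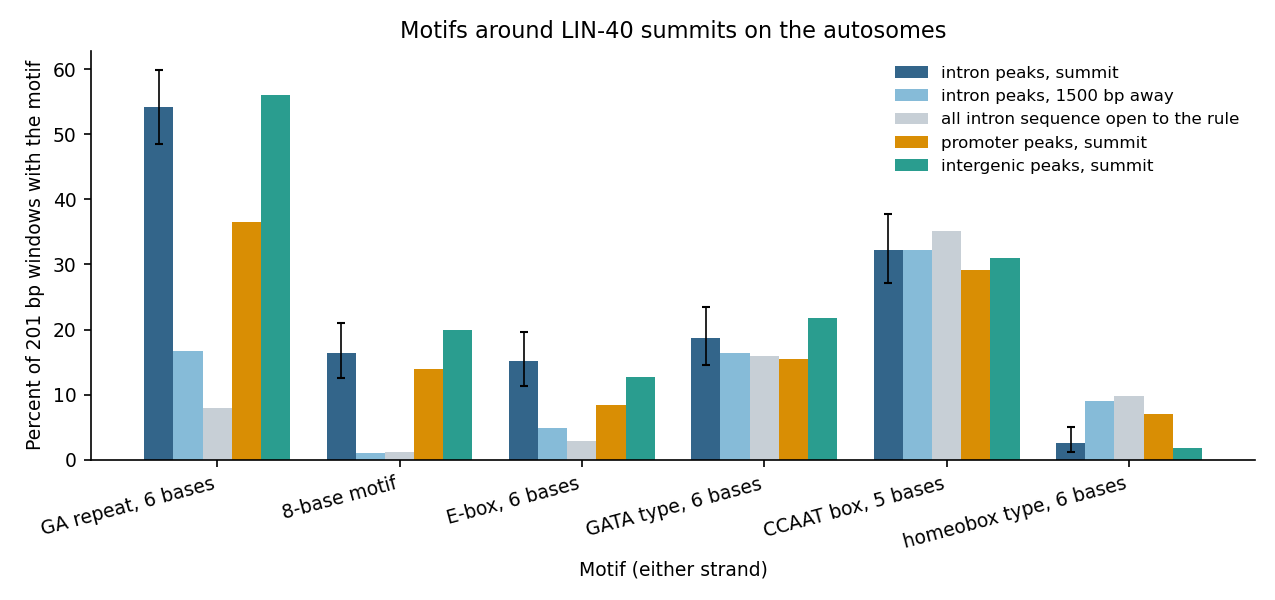
Percent of 201 bp windows with each motif on either strand, at intron summits, 1500 bp from them, over all eligible intron sequence, and at promoter and intergenic summits; error bars are exact 95% intervals of the intron summits. The GA repeat is at 54.2% of intron summits against 16.8% of their flanks, and the homeobox type motif at 2.58% against 9.03%.

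Base composition moved with these values. The 201 bp at intron summits had a mean G and C content of 44.5% ± 7.24 (SD over 310 windows), their flanks 36.6% ± 7.92, and the tiled windows 33.6%. Summits were richer than their flanks in 234 of 310. TAATTA, made of A and T alone, was rarer at summits than in flanks and CTGCGTCT commoner, and the part of base composition in these shares was not tested.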

How the data were processed

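Chromatin immunoprecipitation of LIN-40 was sequenced in 2 samples of 1 group, biological replicates 3 and 4. Per the deposited file listing, the authors called regions on each replicate and on the pool of both, with a control alignment, and derived the optimal IDR list on ce11. The signal of a region is the value the authors deposited for it, on a scale that is not stated. Which caller, aligner and IDR limit they used is not given in the sources used here. The deposited −log10 q-value was 4.13 in every IDR peak and ranks nothing. The lists give no read counts, so depth is unknown, and exact intervals cover counting of peaks only.

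Summits were placed on Ensembl release 115 genes of WBcel235, the same assembly as ce11, by the rule that opens the results. Eligible sequence was sampled every 20 bp, and windows of 201 bp were tiled over it for motif shares. Chromosome arms are the outer 25% at each end. Each of the 2 replicate lists holds 30000 regions, and its strongest 3066 were set against the peaks.

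Named peaks were the 12 strongest, those of hosts with 3 or more, up to 4 of the strongest hosts per gene list, and the 5 strongest beside an RNA gene, farthest from a start, widest and most unequal between replicates. The peaks, the 12 gene lists and the 9 motifs were chosen with earlier results of these data known. The name patterns of the synapse and RNA-binding lists were corrected, and the snoRNA letters chosen, after values were seen. With 1 group, no control library and neighbouring peaks that are not independent, no test between groups or over peaks was made. Lists on ce10 were not used. The sequence of 1 of the strongest peaks is not reported here. Scripts ran in Python 3.11.15 with numpy 2.4.6, pandas 2.3.3, scipy 1.17.1 and matplotlib 3.10.9, and were tested on simulated regions. Alternatives changed the windows, overlap, signal limit, motif window and replicates used.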

Additional observations from a re-analysis of the deposited data

How the results depend on the processing

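Of 95 alternative values, 75 stayed within the replicate spread, the 95% interval or 1.5 times the count of the reported value, and 20 moved. Whether a value changed direction was not scored. Keeping the stronger 50% of the IDR peaks left 139 intron peaks in 114 host genes, with a median signal of 251 and an RNA gene nearby for 41%. An RNA gene lay within 1000 bp of 38.4%. With promoter windows of 2000 bp upstream, 51.5% of the peaks lay before a later start. Recovery in both replicates was 63.2% when 50% of the peak had to overlap and 40.6% when 50% as many of the strongest regions of each replicate were used. GAGAGA was within 50 bp of 36.8% and within 150 bp of 61.9% of summits, CTGCGTCT within 50 bp of 10.6% and CACGTG within 50 bp of 10%. The stronger 50% also left 9 hosts in the other transcription factor list, 3 each in the cytoskeleton and signalling lists and 1 each in the ion channel, synapse and RNA-binding lists.

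Taking the strongest 3066 regions of a single replicate instead of the IDR list gave 296 to 305 intron peaks and 223 to 225 hosts, of which 177 were hosts in both and in the IDR list. First introns held 48.5 to 50.3%, introns over 4000 bp 47 to 48.9%, arms 40.5 to 40.7%, and 55.7 to 56.1% lay before a later start. RNA genes were near 29.4 to 33.1%, snoRNA genes near 26 to 28 peaks. GAGAGA was at 51.7 to 54.4%, CTGCGTCT at 16.5 to 17.4% and CACGTG at 14.4 to 16.6%. No paired analysis was possible because both replicates belong to 1 group. The later-start, intron-length and snoRNA alternatives and the looser exon rule were chosen after seeing the data. The cause of these shifts was not tested, beyond the change of window or list itself.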
